A study of Mus musculus with 24 samples.

Results

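The apelin system here is a set of 3 genes, the apelin receptor Aplnr and its peptide ligands Apln (apelin) and Apela (Elabela, also called Toddler), out of 53465 genes in the deposited table. The genes were chosen by name, and the set was selected on measured values: Aplnr had been seen to be lower in Atf3 knockout (KO) than in wild-type (WT) libraries at day 6 and higher at day 9. KO against WT at days 6 and 9 is therefore given as a description with no test for these genes. The RNA-seq data comprise 24 libraries from mouse embryonic stem cells in 8 groups of 3: WT and Atf3 KO, each undifferentiated (day 0) and at days 3, 6 and 9 of differentiation. Both genotypes were maintained in serum medium with LIF plus 1 inhibitor each of MEK and GSK3, which hold stem cells undifferentiated. The sources used here do not give the factors that drove differentiation, the edited part of Atf3 or whether the KO line is 1 clone. They also do not say that replicate libraries are separate cultures, so p-values cover the spread among these libraries only, and that spread may be technical.

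Aplnr is a G protein-coupled receptor of the rhodopsin family that signals through inhibitory G proteins and is turned off by arrestins. Elabela is its ligand in the early embryo, made by pluripotent cells, and apelin is its later ligand, made by endothelial tip cells and other tissues and raised by low oxygen. The receptor marks nascent mesoderm and, later, cardiac progenitors and venous and sprouting endothelium, and it is known for roles in mesodermal cell migration, heart formation and angiogenesis.

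In the mm10 annotation used for exon lengths (GENCODE vM21), Aplnr (ENSMUSG00000044338) lies on chromosome 2 from 85136225 to 85139923 on the plus strand, in 1 exon block. Apln (ENSMUSG00000037010) lies on chromosome X from 48025146 to 48034853 on the minus strand, with 3 exon blocks. Apela (ENSMUSG00000079042) lies on chromosome 8 from 65028417 to 65037336 on the minus strand, with 4 exon blocks. Apela overlaps the predicted gene Gm45886 on the same strand, which is listed at 0 in all 24 libraries. RefSeq promoter sequences (GRCm38.p6) were matched for 2 of the 3 genes, Apela and Apln.

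The 250 bases before the start of Apela are shown because they hold 2 copies of ATGCAAA, the octamer motif of POU factors such as Oct4 (Pou5f1) without its last base, and because Apela was the only one of the 3 genes above 1 FPKM in the undifferentiated cells. They span chr8:65037337-65037586 on the minus strand and are written 5′ to 3′ with both copies in capitals. The first copy starts 91 bases and the second, in reverse complement, 36 bases before the start.
Apela: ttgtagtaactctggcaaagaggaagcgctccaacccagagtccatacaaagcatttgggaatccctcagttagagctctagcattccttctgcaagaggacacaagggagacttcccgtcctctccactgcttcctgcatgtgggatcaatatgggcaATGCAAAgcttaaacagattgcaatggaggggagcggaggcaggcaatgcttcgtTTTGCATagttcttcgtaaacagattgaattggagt
This shortened motif, read on both strands, occurred in 4.12% of 32851 RefSeq promoter windows of the same length. No copy was found in the window of Apln, and neither window held the cAMP response element TGACGTCA (1.55% of windows), the AP-1 element TGANTCA (6.75%) or the hypoxia element core ACGTG (16.6%), each also read on both strands. None of these motifs contains another. Of the Apela window 48.0% was G or C, and of the Apln window 65.2%. These matches describe letters only, and in neither copy does the next base complete the octamer. Pou5f1 averaged 645 FPKM in WT and 626 in KO at day 0, and 31.9 and 21.6 at day 6. Apela averaged 15.1 and 13.5 FPKM at day 0, and 29.3 and 31.4 at day 6. A link between Pou5f1 and Apela was not tested.

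The libraries held 7855601 to 25274374 reads assigned to genes, recovered from the steps of the FPKM values (fragments per kilobase of exon, scaled by library). Genes for ribosomal RNA took 4.42% to 45.6% of the reads, the highest share being in the shallowest library, WT day 6 replicate 3. Atf3 averaged 1.86 to 15.9 FPKM in the WT groups and 0.172 to 1.70 in the KO groups. KO day 6 replicate 3 stood apart from the other KO libraries at 4.17 FPKM of Atf3. Stem cell markers (Nanog, Esrrb, Zfp42, Pou5f1 and Sox2, all detected) summed to 1462 to 1549 FPKM at day 0, and the neural markers Sox1 and Pax6 stayed below 1 FPKM in sum in every library.

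Aplnr was nearly silent before day 6, reached its highest level in WT day 6 libraries and then fell in WT, while the KO libraries at days 6 and 9 sat between these levels. At day 0 Aplnr stood at 0.0976, 0.0636 and 0.151 FPKM in the WT libraries (replicates 1 to 3) and at 0, 0.0769 and 0.0782 FPKM in the KO libraries. At day 3 it stood at 0.107, 0.179 and 0.157 FPKM in WT and at 0.101, 0.0174 and 0 FPKM in KO. These values rest on 0 to 7 reads per library. The libraries without a read, KO day 0 replicate 1 and KO day 3 replicate 3, allow up to 3 reads, or 0.0631 and 0.0593 FPKM.

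At day 6 Aplnr stood at 24.8, 13.1 and 22.9 FPKM in the WT libraries (1042, 816 and 370 reads). In the KO libraries of that day it stood at 5.29, 3.16 and 2.08 FPKM (212, 216 and 155 reads). The groups did not overlap, and the WT mean of 20.3 ± 6.29 FPKM (SD, n = 3) was 5.77-fold the KO mean of 3.51 ± 1.63 FPKM. On the log2(FPKM + 1) scale KO minus WT was -2.25 (SE 0.26), and -1.895 without replicate 3 of both groups, the shallow WT library and the KO library with Atf3 signal. In bulk RNA, fewer cells of a type and less RNA per cell cannot be told apart.

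At day 9 the order of the genotypes was the opposite. Aplnr stood at 1.06, 1.78 and 1.36 FPKM in the WT libraries (137, 132 and 75 reads) and at 7.16, 3.57 and 3.10 FPKM in the KO libraries (589, 240 and 310 reads). The groups again did not overlap, and the KO mean of 4.61 ± 2.22 FPKM was 3.29-fold the WT mean of 1.40 ± 0.362 FPKM (SD, n = 3 each). KO minus WT was 1.16 (SE 0.26) on the log2 scale and 0.86 without KO day 9 replicate 1, the highest KO library.

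In the order of group means, WT day 6 stood first, followed by KO day 9, KO day 6 and WT day 9. KO day 9 and KO day 6 overlapped and differed by less than the SD of their difference, whereas the gaps above and below them exceeded it. The 4 groups of days 0 and 3 came last, at 0.0395 to 0.148 FPKM, and neighbours among them overlapped.

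**Figure D1:**
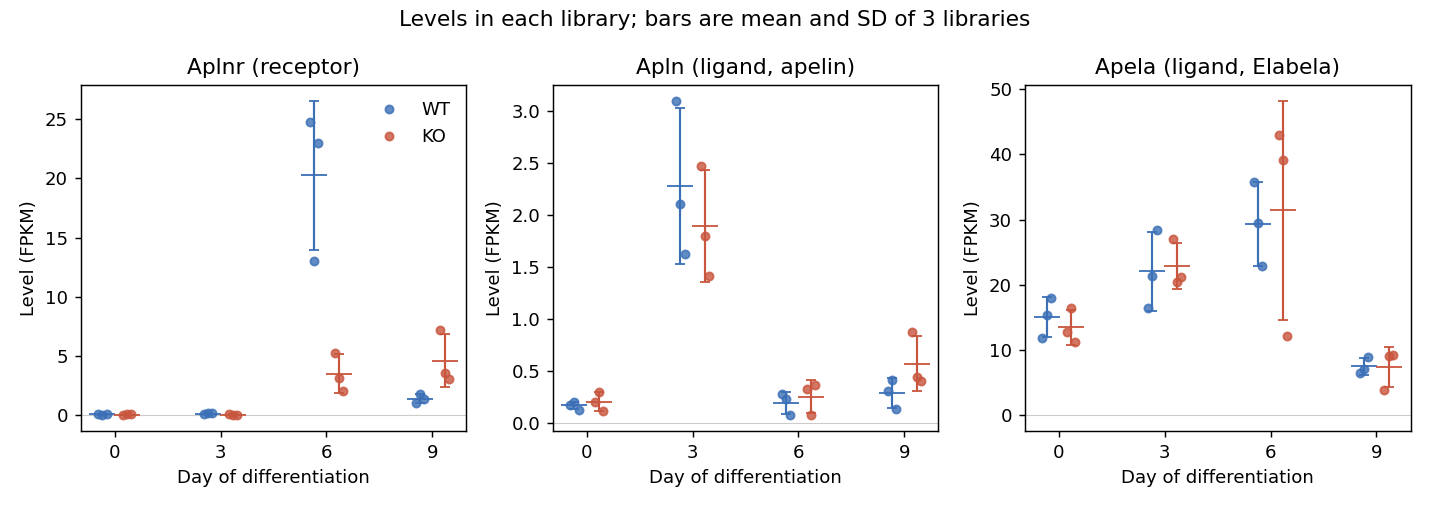
Levels of Aplnr, Apln and Apela (FPKM, linear axes of different height) against day of differentiation; points are libraries, and bars are the mean and SD of 3 libraries per genotype. Aplnr is highest in WT at day 6 and higher in KO than in WT at day 9, Apln peaks at day 3 in both genotypes, and the Apela levels of WT and KO overlap at every day.

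The genotype differences that the selection did not use were tested with limma on log2(FPKM + 1) over 15159 genes with Benjamini-Hochberg adjustment. At day 0, Aplnr differed between KO and WT by -0.07 (95% interval -0.60 to 0.46), with an adjusted p of 1, and at day 3 by -0.14 (-0.68 to 0.39), also with an adjusted p of 1. None of the 3 genes passed at either day, against 0.0132% of all genes at day 0 and 0.0132% at day 3. None had an unadjusted limma p under 0.05, and a fit of the recovered reads with limma's voom called none either. The WT and KO ranges of Aplnr overlapped at day 0 but not at day 3, where the levels were within a few reads of each other.

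Averaged over the genotypes, Aplnr differed by 3.11 (SE 0.18) on the log2 scale between day 3 and day 6. No test is given for that step, since a gene chosen for its day 6 difference had to be expressed at day 6. From day 6 to day 9 the average differed by -1.40 (SE 0.18). That step is also given with no test, since it holds the day 6 and day 9 values that chose the gene. It averages the WT and KO steps given below, of which only the WT step was a fall. From day 0 to day 3 Aplnr changed by 0.02 (SE 0.18), with a limma adjusted p of 0.948. The pseudocount of 1 compresses the step into day 6: with a pseudocount of 0.1 the step from day 3 to day 6 was 5.49. Across all genes, 43% were called from day 0 to day 3, 52.5% from day 3 to day 6 and 21.3% from day 6 to day 9, so a change between days was common.

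Within WT, Aplnr moved by 4.16 (SE 0.26) from day 3 to day 6 and by -3.11 (SE 0.26) from day 6 to day 9. Within KO the same steps were 2.06 (SE 0.26) and 0.31 (SE 0.26). These 4 steps hold the day 6 and day 9 values that chose the gene, and no test is given for them.

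**Figure D2:**
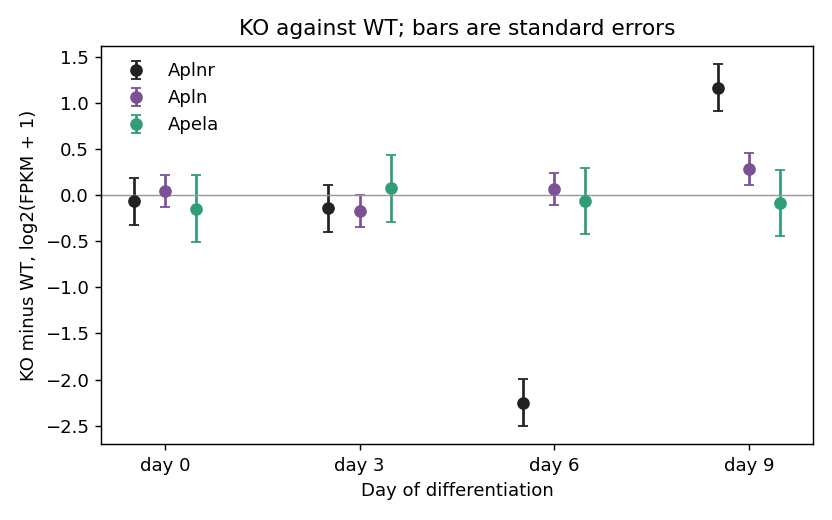
KO minus WT on the log2(FPKM + 1) scale for Aplnr, Apln and Apela at each day; points are limma estimates from 3 libraries per group, and bars are standard errors. Aplnr stands at -2.25 at day 6 and 1.16 at day 9, while Apln and Apela stay between -0.17 and 0.28 at all days.

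Apela, the embryonic ligand, was expressed at every stage, and its WT and KO ranges overlapped on every day. At day 0 it stood at 11.9, 15.4 and 17.9 FPKM in the WT libraries and at 12.8, 11.2 and 16.5 FPKM in the KO libraries. At day 3 it stood at 16.5, 21.3 and 28.4 FPKM in WT and at 27.0, 20.5 and 21.2 FPKM in KO. The ranges of the genotypes overlapped at both days.

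At day 6 Apela stood at 35.7, 29.4 and 22.8 FPKM in WT and at 42.9, 39.2 and 12.2 FPKM in KO. The low KO library is replicate 3, the one with Atf3 signal, and the low WT library is the shallow replicate 3, with 100 reads of Apela. At day 9 Apela stood at 6.50, 7.16 and 8.98 FPKM in WT and at 3.94, 9.14 and 9.20 FPKM in KO. The lowest day 9 library, KO replicate 1, is the one with the most Aplnr.

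The KO and WT means of Apela were 13.5 and 15.1 FPKM at day 0, 22.9 and 22.1 at day 3, 31.4 and 29.3 at day 6, and 7.43 and 7.55 at day 9. KO minus WT was -0.15 (95% interval -0.89 to 0.60) at day 0 and 0.07 (-0.68 to 0.82) at day 3 on the log2 scale, both with a limma adjusted p of 1. It was -0.07 (SE 0.36) at day 6 and -0.09 (SE 0.36) at day 9. With 1 library left out it ranged from -0.377 to 0.492 at day 6 and from -0.262 to 0.261 at day 9. The sign on those days thus depended on single libraries.

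Averaged over the genotypes, Apela fell by 1.83 (SE 0.25) on the log2 scale from day 6 to day 9, with an adjusted p of 2.47e-05. The fall was -1.81 within WT (adjusted p = 0.00204) and -1.84 within KO (adjusted p = 0.00185), in limma. Rescaled to TPM neither passed (-0.816, adjusted p = 0.164 in WT and -1.478, adjusted p = 0.0664 in KO), and the KO fall did not pass with its groups fitted alone (adjusted p = 0.197). Among all genes, 13.3% were called in that step in WT and 8.51% in KO. The earlier steps averaged over genotypes were 0.62 (SE 0.25, limma adjusted p = 0.0553) from day 0 to day 3 and 0.34 (SE 0.25, adjusted p = 0.276) from day 3 to day 6. The first passed with equal library sums after leaving out ribosomal RNA genes (0.74, limma adjusted p = 0.0144), and the second passed without replicate 3 of both day 6 groups (0.70, adjusted p = 0.00626).

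In group means Apela ran from KO day 6 and WT day 6 through the day 3 and day 0 groups to the day 9 groups. Every neighbouring pair overlapped except KO day 0 and WT day 9, so the day 9 groups stood below all the others.

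Apln, the ligand made by tip cells, was a day 3 gene in these cultures. It stood at 3.10, 2.11 and 1.63 FPKM in the WT libraries of day 3 and at 2.48, 1.79 and 1.42 FPKM in the KO libraries (53 to 173 reads). Within each genotype replicate 1 was the highest library, and it was also the library with the lowest share of ribosomal RNA reads of its group, 15.3% in WT and 15.4% in KO against 25.0% to 35.2% in the others. Those 2 libraries also had the highest day 3 levels of most hypoxia-induced genes within their genotype, described with that list. The parts of the ribosomal RNA share and of the hypoxia genes in the level of Apln were not tested.

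On the other days Apln was low. At day 0 it stood at 0.172, 0.199 and 0.127 FPKM in WT and at 0.198, 0.113 and 0.299 FPKM in KO. At day 6 it stood at 0.279, 0.226 and 0.0728 FPKM in WT and at 0.322, 0.0688 and 0.362 FPKM in KO, or 1 to 23 reads per library. At day 9 it stood at 0.309, 0.412 and 0.128 FPKM in WT and at 0.871, 0.436 and 0.399 FPKM in KO, with KO replicate 1 again the highest. The ranges of WT and KO overlapped on all 4 days.

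Apln passed the filter on low values only through the day 3 libraries, so its steps into and out of day 3 were tested with no filter. Averaged over the genotypes, Apln rose by 1.36 (SE 0.12) from day 0 to day 3 on the log2 scale, with an adjusted p of 7.16e-08. It fell by 1.32 (SE 0.12) from day 3 to day 6, with an adjusted p of 1.28e-07. Without replicate 1 of both day 3 groups, left out after seeing the data, the steps were 1.204 and -1.164. Its next step was 0.21 (SE 0.12), with an adjusted p of 0.221. With a pseudocount of 0.1 in place of 1, the rise was 2.93 and the fall -2.83.

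With no filter, the rise of Apln also passed within WT (1.47, adjusted p = 5.32e-06) and within KO (1.25, adjusted p = 3.30e-05) in limma, and so did the fall (WT -1.44, adjusted p = 9.04e-06, and KO -1.20, adjusted p = 5.63e-05). With the filter, 25.9% of all genes were called in the first of these steps in WT and 28.1% in KO, and 38.6% and 32.7% in the second. KO minus WT was 0.04 (95% interval -0.32 to 0.40) at day 0 and -0.17 (-0.53 to 0.19) at day 3, both with an adjusted p of 1. At day 3, where same-numbered libraries pair, Apln was lower in KO in all 3 pairs, and with the replicate block within the day the difference was -0.17 (SE 0.14, adjusted p = 1). It was 0.07 (SE 0.17) at day 6 and 0.28 (SE 0.17) at day 9, the latter becoming 0.81 with a pseudocount of 0.1.

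The change from day 0 to day 3 was also compared between the genotypes. KO minus WT of that change was -0.07 (95% interval -0.83 to 0.68) for Aplnr, -0.21 (-0.72 to 0.29) for Apln and 0.22 (-0.84 to 1.27) for Apela on the log2 scale. None of the 3 passed in limma (adjusted p = 1 for each, and no unadjusted p under 0.05), and limma's voom called none; 0.0132% of all genes were called. In the filter on low values, Aplnr reached 1 FPKM only in the 12 libraries of days 6 and 9 and Apln only in the 6 of day 3. Both entered the test through the groups where they are high, and Apela reached 1 FPKM in all 24 libraries.

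Since FPKM is a level per exon length, ligand and receptor can be set against each other within a library. The Apela to Aplnr ratio was 119 to 242 in the WT libraries of day 0 and 119 to 181 in those of day 3. At day 6 it was 1.44, 2.25 and 0.996 in the WT libraries and 8.12, 12.4 and 5.85 in the KO libraries. At day 9 it was 6.13, 4.02 and 6.58 in WT and 0.55, 2.56 and 2.97 in KO.

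The ligand transcript therefore exceeded the receptor transcript in all libraries with a read of Aplnr except WT day 6 replicate 3 and KO day 9 replicate 1. The genotypes did not overlap at day 6 or day 9, with KO above WT at day 6 and below it at day 9. Because the ratio holds the Aplnr values that chose the set, it is given with no test. The Apln to Aplnr ratio was 10.4 to 29.0 in the WT libraries of day 3, against 0.00317 to 0.0173 in those of day 6.

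**Figure D3:**
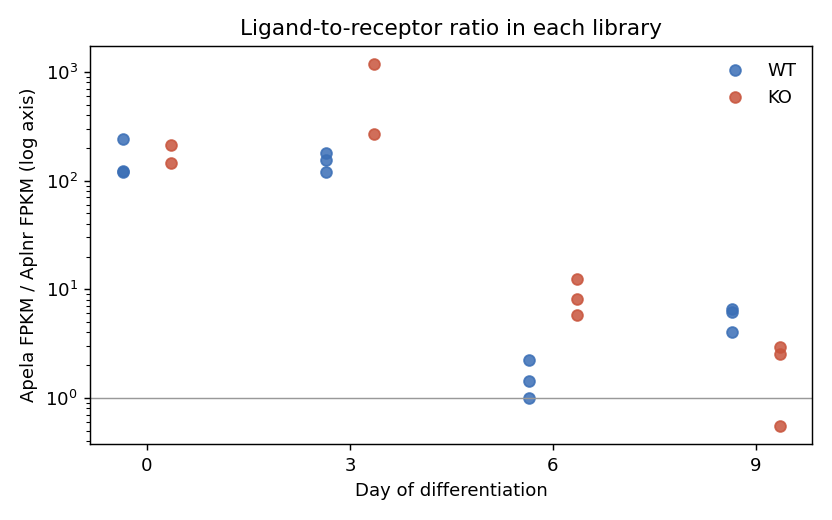
Ratio of Apela FPKM to Aplnr FPKM in each library (log axis) against day; the line marks a ratio of 1, and 2 KO libraries without an Aplnr read have no point. WT libraries sit between 0.996 and 2.25 at day 6, where KO libraries sit between 5.85 and 12.4, and the order turns at day 9.

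Of all genes tested, 0.495% were called lower in KO at day 6 and 0.468% higher at day 9. Both were met by 3 genes (0.0198%); Aplnr is counted there by the values that chose it, so nothing is read from this count, and the other two are Asb4 and Foxc2. Asb4, an ankyrin repeat and SOCS box protein of vascular lineages, averaged 3.30 FPKM in WT and 1.41 in KO at day 6, and 2.11 and 4.52 at day 9. Foxc2, a forkhead factor of paraxial and vascular mesoderm, averaged 3.31 FPKM in WT and 0.19 in KO at day 6, and 0.946 and 3.50 at day 9. The reverse pattern was met by 1 gene (0.0066%), Hoxa10 (named after its values were seen), at 0.838 and 2.05 FPKM at day 6 and 5.03 and 2.60 at day 9.

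Across the 24 libraries, which share groups and depth, the genes whose log2(FPKM + 1) was most like Aplnr were Bmp7 (Pearson r = 0.949), Six2 (0.947), Cfc1 (0.931), Col23a1 (0.930), Erbb2 (0.929) and Frzb (0.916), out of 7731 genes with a group mean of at least 5 FPKM. Bmp7 is a secreted bone morphogenetic protein, Six2 a homeobox factor, Cfc1 the Nodal co-receptor Cryptic, Erbb2 a receptor tyrosine kinase and Frzb a secreted Wnt antagonist. Cfc1 averaged 46.4 FPKM in WT and 12.4 in KO at day 6, and 1.03 and 3.23 at day 9. Six2 averaged 8.05 and 4.59 FPKM at day 6, and 1.52 and 3.84 at day 9. Frzb averaged 6.36 and 3.08 FPKM at day 6, and 3.52 and 3.48 at day 9, and was alone among the 6 in not being higher in KO at day 9. Since r holds the day 6 and day 9 values that chose Aplnr, nothing is read from the genotype differences of these genes.

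**Figure D4:**
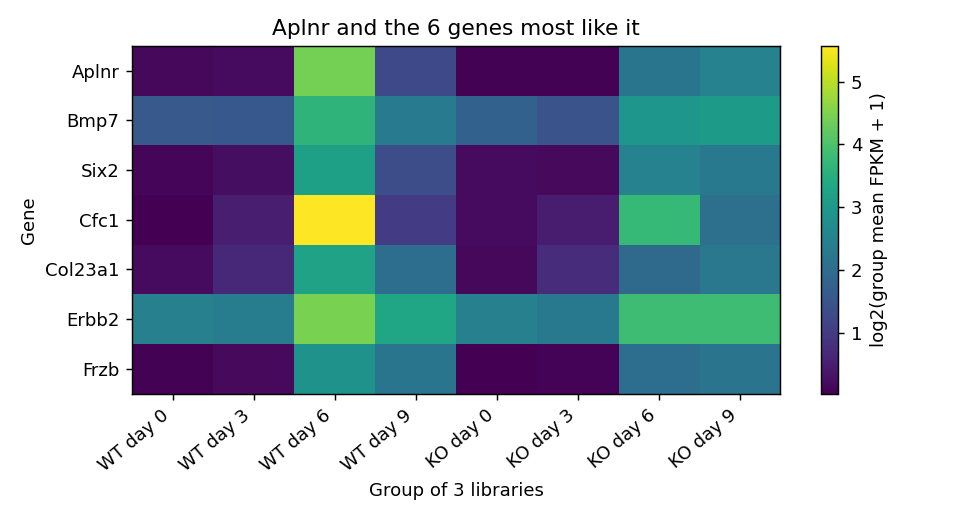
Group means of Aplnr and the 6 genes most like it, as log2(mean FPKM + 1) in color, for the 8 groups of 3 libraries. All 7 genes have their highest group mean in WT day 6, where Cfc1 reaches 46.4 FPKM.

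The ligands had other neighbours. Apln was most like Nptxr (r = 0.930), Cpeb1 (0.927), Foxi3 (0.925), Rasd2 (0.925), Elovl4 (0.923) and Zfp512 (0.922), all highest at day 3. Foxi3, a forkhead factor, averaged 18.7 FPKM in WT and 21.3 in KO at day 3 and at most 1.26 FPKM in any other group. Apela was most like Kifc2 (r = 0.841), Grb7 (0.837), Rhebl1 (0.827), Gpatch4 (0.814), Fth1 (0.803) and Denr (0.793). Between the 3 genes themselves r was -0.386 for Aplnr and Apln, 0.149 for Aplnr and Apela and 0.143 for Apln and Apela.

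The machinery around the receptor was described from lists of known genes, which were chosen with earlier results of these data in view. Of 16 G proteins, arrestins, receptor kinases and RGS regulators, 15 were tested, and limma called none between KO and WT at any day. At an unadjusted limma p under 0.05 there were 2 at day 6 and 3 at day 9. Over all 15159 genes tested there were 1516 and 789, the numbers to set beside the same counts for the lists below. Limma's voom called none of the 15 at those days, while 1 was called higher at day 9 with equal library sums. The median KO minus WT of the list was -0.04 at day 6 and 0.17 at day 9, against 0.021 and 0.007 over all genes. Gnai2, an inhibitory G protein subunit and the most abundant of them, stood at 206 ± 102 FPKM in WT and 147 ± 55.4 in KO at day 6 (SD, n = 3, limma adjusted p = 0.608).

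From day 3 to day 6, averaged over the genotypes, 6 of these 15 genes rose and 4 fell, in a step in which 52.5% of all genes were called. Rgs5, a brake on G protein signalling of mural cells, rose by 2.22 (limma adjusted p = 1.83e-12), and Gnai2 rose by 1.12 (adjusted p = 2.35e-04). Arrb1, beta-arrestin 1, rose by 2.12 between days 0 and 3 (limma adjusted p = 3.95e-10) and fell by 0.46 in the next step (adjusted p = 0.0137). From day 0 to day 3, 4 of the 15 rose and 1 fell (43% of all genes called), and from day 6 to day 9, 2 rose and 4 fell (21.3%).

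Of 9 proteases that cut or degrade the peptides, 5 were tested and limma called none between KO and WT on any day (1 at an unadjusted p under 0.05, at day 6; voom called none at days 6 and 9). Furin, the convertase that matures both ligands, stood at 13.7 ± 6.42 FPKM in WT and 9.43 ± 2.08 in KO at day 6, and 13.6 ± 2.29 and 16.9 ± 0.908 at day 9 (SD, n = 3). Averaged over the genotypes, Furin rose by 1.45 from day 3 to day 6 (limma adjusted p = 2.22e-07), when 3 of the 5 rose and 1, Pcsk6, fell by 1.34 (adjusted p = 4.94e-08).

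Of 14 genes known downstream of apelin in endothelium, 8 were tested, and 12 were found by symbol. Of the 8, only Nos3, endothelial nitric oxide synthase, was called higher in KO at day 9, where 0.468% of all genes were. It stood at 2.21 ± 0.924 FPKM in KO against 0.758 ± 0.282 in WT (log2 difference 0.83, SE 0.20, limma adjusted p = 0.047, n = 3). Nos3 stayed called when KO replicate 3 was left out, but leaving out any other day 9 library ended the call, as did voom. At day 6 none of the 8 was called (0 at an unadjusted p under 0.05, and none by voom), with Fgfr1, the most abundant, at 19.0 FPKM in WT and 16.1 in KO. Among 13 tested genes of other vascular peptide and lipid receptors, such as those for adrenomedullin, endothelin and Cxcl12, limma called none on any day. At an unadjusted p under 0.05 there were 4 at day 6 and 3 at day 9, against 1516 and 789 of all 15159 genes. Limma's voom called none. The median KO minus WT of these 13 genes was 0.47 at day 9 against 0.007 over all genes.

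Hypoxia-induced genes were set beside Apln. Of 12 tested, 4 rose from day 0 to day 3 averaged over the genotypes, where 43% of all genes were called. Adm, adrenomedullin, stood at 31.6, 3.16 and 1.79 FPKM in the WT libraries of day 3 and at 32.6, 2.46 and 1.58 in the KO libraries, and Egln3 at 79.2, 7.55 and 6.58 in WT and 58.6, 6.30 and 5.91 in KO. For Adm and Egln3, replicate 1 of each genotype thus stood far above the others, as it was the highest for Apln. Pdk1 differed less, at 21.9, 20.2 and 17.9 FPKM in WT and 22.5, 19.6 and 16.6 in KO. Car9, too low to be tested, was lowest in replicate 1 of both genotypes. All other listed genes were highest there. The step was 2.39 for Adm (limma adjusted p = 0.00148) and 1.68 for Egln3 (adjusted p = 0.00976), and without both replicate 1 libraries it was 1.26 (adjusted p = 0.00105) and 0.62 (adjusted p = 0.0107). Without them 4 of the 12 rose and 2 fell. From day 3 to day 6, where 52.5% of all genes were called, 6 fell and 2 rose, with Pdk1 down by 2.99 (limma adjusted p = 9.63e-13) and Adm down by 2.05 (adjusted p = 0.00408), the latter -0.93 without both replicate 1 libraries. Vegfa, in contrast, rose by 1.03 in that step (limma adjusted p = 0.0066). Between KO and WT none of the 12 was called on any day (1 at an unadjusted p under 0.05, at day 9; voom called none at days 6 and 9).

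Among cell types in which Aplnr is known to be expressed, called genes of nascent mesoderm were lower in KO at day 6. Called genes of heart and endothelium were higher in KO at day 9. At day 6, where Aplnr was lower in KO, the endothelial list was split, with a median KO minus WT of 0.42. Etv2 (-1.23), Egfl7 (-0.50), Sox17 (-0.30), Cldn5 (-0.15) and Robo4 (-0.03) were lower in KO and not called. The rest of the tested endothelial genes were higher. At day 6 limma called 7 of 16 tested streak and nascent mesoderm genes lower in KO, where 0.495% of all genes were, and none higher, with a list median of -1.21 against 0.021 over all genes. Cer1, an antagonist of Nodal, averaged 7.63 FPKM in WT and is listed at 0 in all KO libraries. T (Brachyury) averaged 15.6 ± 0.991 FPKM in WT and 1.93 ± 2.17 in KO, Lhx1 12.0 ± 13.8 and 0.677 ± 0.142, and Mesp1 5.99 ± 6.04 and 0.520 ± 0.254 (SD, n = 3). The limma adjusted p-values were 0.0364, 0.00692 and 0.00556 for T, Lhx1 and Mesp1. Not called were Eomes (-1.35), Foxc1 (-1.08), Snai1 (-0.72), Pdgfra (-0.58), Kdr (-0.55), Mesp2 (-0.39), Mixl1 (-0.23), Evx1 (-0.03) and Hand1 (0.37). Hand1, the most abundant of the list, averaged 215 FPKM in WT and 279 in KO. The count of called genes was 2 without KO day 6 replicate 2, 4 without WT day 6 replicate 3, 9 without WT day 6 replicate 2 and 5 without replicate 3 of both groups. No gene at all was called at day 6 when the day 6 groups were fitted alone.

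The 4 fixed nascent mesoderm markers T, Mixl1, Mesp1 and Eomes, all detected, summed to 20.2, 22.9 and 39.2 FPKM in the WT libraries of day 6 and to 3.16, 1.56 and 8.13 FPKM in the KO libraries. As for Aplnr, the genotypes did not overlap. Among the KO libraries the order differed, since replicate 3 had the most marker signal and the least Aplnr. At day 9 the sums were 1.14, 1.84 and 2.17 FPKM in WT and 20.6, 2.29 and 1.28 FPKM in KO, so that KO replicate 1 held nascent mesoderm signal at the level of WT day 6. That library also had the highest Aplnr and Apln and the lowest Apela of the KO day 9 libraries. In the other KO libraries of day 9 Aplnr stood at 3.57 and 3.10 FPKM. The part of the nascent mesoderm signal in the Aplnr level was not tested.

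At day 9 limma called 6 of 14 tested heart field and heart muscle genes higher in KO, where 0.468% of all genes were, and none lower, with a median of 0.93 against 0.007 over all genes. Myh6, a cardiac myosin, averaged 23.4 ± 9.95 FPKM in KO and 2.32 ± 0.170 in WT (limma adjusted p = 9.61e-07), and Actc1, cardiac actin, 264 ± 141 and 40.6 ± 2.37 (adjusted p = 0.00701; SD, n = 3). Tnnt2 averaged 14.1 FPKM in KO and 2.61 in WT, and Smyd1 10.7 and 1.83. Tbx5 (log2 difference 0.86) and Hcn4 (0.99) were also called. The rest of the tested list was not called: Nkx2-5 (1.56), Gata5 (1.18), Tbx1 (0.54), Hand2 (0.43), Gata6 (0.24), Gata4 (0.18), Tbx20 (0.05) and Isl1 (-0.22). The list as a whole thus did not move together, and heart field factors such as Isl1, Tbx20 and Gata4 differed little. The summed markers Myh6, Tnnt2, Actc1 and Nkx2-5 ran from 129 to 425 FPKM in KO and from 43.4 to 50.3 in WT, with no overlap. The count of called genes ranged from 4 to 8 when 1 day 9 library was left out, and was 2 with a pseudocount of 0.1 and 0 with the day 9 groups fitted alone.

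Of 19 tested endothelial genes, 5 were called higher in KO at day 9 (0.468% of all genes) and none lower, with a median of 0.73. At day 6, where Aplnr was lower in KO, the endothelial median was 0.42 against 0.021 over all genes. Of the 19 genes, 9 had an unadjusted limma p under 0.05 at day 6 in either direction, against 1516 of all 15159 genes. At day 9 Icam2 averaged 6.71 ± 1.95 FPKM in KO and 2.17 ± 0.888 in WT, and Cdh5 (VE-cadherin) 7.41 ± 2.73 and 2.43 ± 0.288. Tie1 averaged 3.80 ± 1.15 and 1.08 ± 0.263, and Pecam1 5.93 ± 0.206 and 3.17 ± 0.196 (SD, n = 3). The limma adjusted p-values of these genes were, in that order, 0.0104, 0.0102, 0.00313 and 0.047. With a pseudocount of 0.1, or with the day 9 groups fitted alone, none was called. The count was 2 without KO day 9 replicate 1, 3 without WT or KO replicate 2, and 7 without KO replicate 3. The summed markers Cdh5, Pecam1, Tek, Emcn and Kdr ran from 22.1 to 26.8 FPKM in KO and from 9.32 to 13.7 in WT. The parts of heart and endothelial cells in the Aplnr difference were not tested.

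Tip cell and venous genes are the vascular setting in which the receptor and apelin are best known. Of 12 listed, 9 were tested, and limma called 0 of 9 between KO and WT on any day. At an unadjusted limma p under 0.05 there were 2 at day 6 and 1 at day 9, and voom called none. The most abundant of the 9, Unc5b, stood at 45.5 FPKM in WT and 45.2 in KO at day 6. The tip cell genes Esm1, Dll4 and Kcne3 were too low to be tested. At day 9 they averaged 0.0962, 0.544 and 0.715 FPKM in KO, against 0.00455, 0.168 and 0.316 in WT. At day 6, 1 endothelial gene (Tie1, 0.0953 FPKM in WT and 1.17 in KO) was called higher, where 0.231% of all genes were. On the same day 1 heart field gene (Tbx1, 2.34 and 0.0647 FPKM) was called lower, where 0.495% of all genes were.

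The other lists gave the setting. Blood genes held 7 of 9 tested called higher in KO at day 6, where 0.231% of all genes were. Among them were the embryonic globins Hbb-bh1 (1075 ± 839 against 29.6 ± 24.4 FPKM) and Hba-x (433 ± 350 against 10.9 ± 9.74 FPKM; SD, n = 3) and the erythroid genes Alas2 and Klf1. Leaving out KO day 6 replicate 2 lowered that count to 1, leaving out KO replicate 1 to 4, and leaving out replicate 1 or replicate 3 of WT to 2 or 3. The summed markers Hbb-bh1, Hba-x, Gata1 and Ptprc stood at 1978, 2395 and 158 FPKM in KO replicates 1 to 3 of day 6. In WT they stood at 80.5, 20.15 and 22.5 FPKM. KO replicate 3, the library with Atf3 signal, thus had far less blood signal than the other KO libraries. Trophoblast genes held 3 of 9 called lower in KO at day 9, where 0.495% of all genes were: Rhox6 (5.29 against 46.8 FPKM), Rhox9 and Plac1. Rhox6 and Rhox9 belong to a family of similar genes, so their split of reads is uncertain. Trh and Otx2 were called lower in KO at day 6 among 12 formative and endoderm genes, where 0.495% of all genes were. No naive stem cell gene of 13 and no yolk sac endoderm gene of 13 was called in limma on any day. At day 9, however, 8 yolk sac genes had an unadjusted p under 0.05, against 789 of all 15159 genes (0 naive genes on any day). Limma's voom called 1 of the yolk sac genes lower at day 9.

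**Figure D5:**
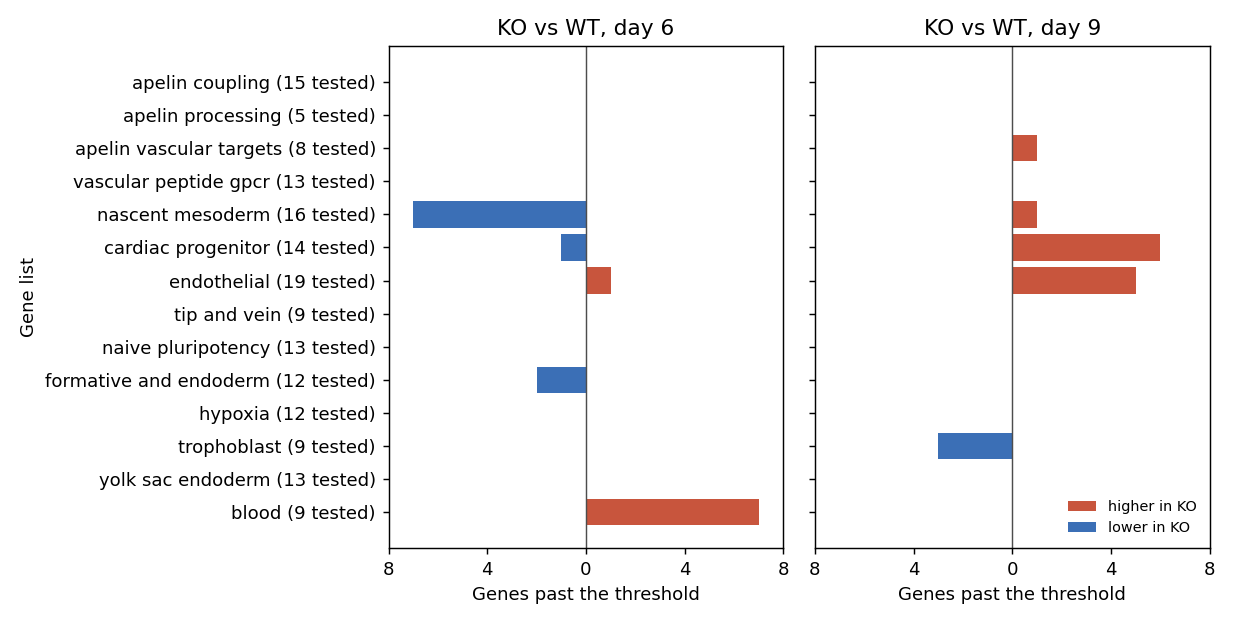
Number of genes past an adjusted p of 0.05 in KO against WT at day 6 and day 9, by gene list; bars to the right of 0 are higher in KO and bars to the left lower in KO, and a missing bar means that none was called. The apelin coupling and processing lists have no bar, 7 nascent mesoderm genes are lower at day 6, and 6 heart and 5 endothelial genes are higher at day 9.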

How the data were processed

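RNA-seq of 24 libraries was used. The deposited table gives FPKM per gene, which the authors computed from their reads. HISAT2 2.2.1 and featureCounts 2.0.1 are listed with the mm10 build, per the submitters' processing notes, besides Trimmomatic 0.39, FastQC 0.11.9, R 4.1.0 and DESeq2 1.30.1. Strandedness and the scaling behind FPKM are not stated in the sources used here. Steps in the values gave whole reads, with GENCODE vM21 exon lengths, for 95.5% to 96.9% of values up to 50 reads (within 0.05 reads).

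All 8 groups were fitted together with limma 3.58.1 (R 4.3.3) on log2(FPKM + 1), for 15159 genes with at least 1 FPKM in 3 libraries, with Benjamini-Hochberg adjustment and a threshold of 0.05. The script was tested on simulated data. Python 3.11.15 and matplotlib 3.10.9 served for tables and figures. A KO day 0 library whose column has no matching sample label entered its group without a number. Alternatives were other pseudocounts, filters and scalings, a replicate block, single groups, left-out libraries and voom on recovered reads. Same-numbered WT and KO libraries deviated together at day 3 (r = 0.599 to 0.655) but not at days 0, 6 or 9, where r ranged from -0.467 to 0.265. At day 3 the numbers therefore pair the libraries, by the data and not by a label.

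Besides the 3 genes, each list is shown by up to 4 called genes of largest change in KO against WT, or its most abundant gene. Genes named for changes between days were picked after their values were seen. The genes and lists were chosen with earlier results of these data known.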

Additional observations from a re-analysis of the deposited data

Results flagged for a closer look

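The KO minus WT difference of Aplnr lay on opposite sides of 0 at different days. It was -0.14 at day 3 (95% interval -0.68 to 0.39, which holds 0) and -2.25 at day 6, against 1.16 at day 9, on the log2(FPKM + 1) scale. The WT and KO libraries did not overlap on these days. At day 3, however, the nearest libraries stood at 0.107 FPKM in WT and 0.101 in KO, with 7 reads each. The difference between days was not tested, since days 6 and 9 chose the gene, and the day 3 value rests on 0 to 7 reads per library.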

How the results depend on the processing

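The directions of Aplnr in KO against WT held at days 6 and 9 under every alternative run. Depth limits Aplnr at days 0 and 3 and Apln outside day 3, which rest on few reads. For Aplnr, KO minus WT was -1.675 at day 6 as TPM, and at day 9 1.578 with a pseudocount of 0.1 and 1.666 with voom. For Apln at day 9 it was 0.814 and 0.971 under those 2 settings. Leaving out 1 library gave -2.523 to -2.005 for Aplnr at day 6 and 0.859 to 1.356 at day 9. The step of Apela from day 0 to day 3 passed with equal sums (0.742) and with the compared groups alone (0.618), and ranged from 0.522 to 0.71 with 1 library left out. The step of Apela from day 3 to day 6 was 0.696 without replicate 3 of both day 6 groups and ranged from 0.18 to 0.614; it passed without KO day 6 replicate 3. Within genotypes, the fall of Apela to day 9 no longer passed as TPM in WT (-0.816) or KO (-1.478), nor in KO with the compared groups alone (-1.835).

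Small differences changed sign. For Apln at day 0, KO minus WT was -0.08 with the replicate block, -0.038 with the replicate block within each day and -0.014 without the unnumbered library (range -0.014 to 0.098); at day 3 it was 0.003 without WT replicate 1 (range -0.318 to 0.003). For Apela it was 0.017 at day 0 as TPM, and -0.113 and -0.048 at day 3 without replicate 1 of WT or KO (range -0.113 to 0.263), and -0.232 without both. Its KO minus WT change from day 0 to day 3 was then -0.086, and the count of that change 0; this setting was chosen after seeing the data. The step of Aplnr from day 0 to day 3 was -0.002 without KO day 3 replicate 1 (range -0.002 to 0.035). Within KO it was 0.002 as TPM, 0.047 with the replicate block, and 0.001, 0 and 0.01 without the unnumbered library, day 0 replicate 2 or day 3 replicate 3 (range -0.059 to 0.01). Within KO the step of Apela from day 3 to day 6 was -0.017 with equal sums and -0.045 without KO day 6 replicate 1 (range -0.045 to 0.825). With 1 library left out, KO minus WT of Apela ranged from -0.377 to 0.492 at day 6 and from -0.262 to 0.261 at day 9. That of Apln at day 6 ranged from -0.009 to 0.175.

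Counts of called genes moved as follows; the cause was not tested. KO against WT at day 0 (2 genes) gave 1 with a pseudocount of 0.1, as TPM, with groups alone and with the replicate block within each day, 15 with no filter, and 0 with the stricter filter and voom (2 to 7 with 1 library left out). At day 3 (2 genes) it gave 1 with a pseudocount of 0.1, the stricter filter and voom, 7 with no filter, and 0 as TPM, with groups alone and with the block within each day (0 to 2). At day 6 (110 genes) it gave 167 with no filter, 28 with the stricter filter, 46 as TPM, 0 with groups alone, 61 with the replicate block, 49 with the block within each day and 52 with voom (34 to 373). At day 9 (146 genes) it gave 36 with a pseudocount of 0.1, 263 with no filter, 50 with the stricter filter and 1 with groups alone (96 to 166). The KO minus WT change from day 0 to day 3 (2 genes) gave 1 with pseudocounts of 0.1 and 0.5, TPM, equal sums, the replicate block and without the unnumbered library, 5 with no filter, and 0 with the stricter filter, groups alone and voom (1 to 3).

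For steps averaged over genotypes, the stricter filter gave 4070, 5131 and 1893 genes and TPM 3489, 5078 and 6228 in day order, and groups alone 1541 in the last; with 1 library left out the ranges were 5715 to 6664, 7008 to 9100 and 2267 to 5165. In WT, the stricter filter gave 2389 in the first step and 1163 in the last, TPM 1552, 2100 and 5092, groups alone 3761 in the second and 302 in the last, and leaving out replicate 3 of both day 6 groups 1158 in the last (ranges 2871 to 3932, 4458 to 6649 and 853 to 4061). In KO, the stricter filter gave 2667, 3225 and 631, TPM 1784 and 3261 in the first and second, groups alone 6691, 2654 and 142, and leaving out replicate 3 of both day 6 groups 2406 in the last (ranges 3101 to 3927, 3427 to 6672 and 866 to 1902). TPM moved the median KO minus WT of all genes at day 6 to 0.506 and the share of calls higher in KO from 31.8% to 65.2%, and at day 9 from 48.6% to 69.6%. The replicate block changed no call on Aplnr, Apln or Apela.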
